A study of Mus musculus with 9 samples.

Results

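The genes described here are 10 osteoblast regulators and mineralization genes (Runx2, Sp7, Alpl, Bglap, Bglap2, Ibsp, Spp1, Dmp1, Phex and Ifitm5). They were taken by symbol, and all 10 were found among the 27179 genes of the deposited table and passed the filter on low values. The study sequenced polyadenylated RNA of cells sorted from the fibrous tissue around an implant in the mouse tibia, 2 weeks after surgery. Both groups carried Lepr-CreERT, a tamoxifen-dependent Cre recombinase driven by the leptin receptor gene, together with the Tdtomato reporter, and tamoxifen was given to induce recombination. The 4 control libraries came from Lepr-CreERT;Tdtomato mice (Cre only) and the 5 knockout (cKO) libraries from Lepr-CreERT;Tdtomato;Grem1fl/fl mice, in which the floxed gene encodes gremlin 1, a secreted antagonist of bone morphogenetic proteins. Cells were sorted as Lin- and tdTomato+, so the reporter marks past activity of the Cre and not Lepr expression at harvest. The labels give no ages and do not say whether libraries came from different animals. All p-values therefore describe variation among libraries, which may be technical.

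Osteoblasts arise from mesenchymal progenitors under the transcription factor RUNX2 and, downstream of it, SP7 (osterix). They then make alkaline phosphatase (Alpl), which frees phosphate by cleaving the mineralization inhibitor pyrophosphate, and acidic phosphoproteins that bind hydroxyapatite, among them bone sialoprotein (Ibsp) and osteopontin (Spp1). Osteocalcin (Bglap and Bglap2) and the membrane protein BRIL (Ifitm5) mark mature osteoblasts, and DMP1 and PHEX, which take part in phosphate regulation, are abundant in cells turning into osteocytes. In bone marrow, LEPR-lineage stromal cells are a known source of osteoblasts in the adult.

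Library depth and other cell types differed between the groups. The 4 control libraries and cKO replicate 5 held 43.5 to 53.4 M recovered reads (M, 1e6), and cKO replicates 1 to 4 held 76.3 to 87.2 M. Results that rest on cKO replicates 1 to 4 therefore cannot be told apart from this difference in depth. Normalized counts of Grem1 were 356 to 736 for controls and 46.4 to 133 for knockouts, without overlap (log2 fold change -2.72, SE 0.43, limma adjusted p = 0.00781; exact permutation p = 0.00794, the smallest that 4 against 5 libraries can give). Lepr itself varied widely within both groups, between 935 and 40594 among controls and between 1347 and 15785 among knockouts. All 10 skeletal muscle markers were higher in the knockout, and their summed level lay between 3003 and 6710 for controls and between 83998 and 660431 for knockouts. Summed chondrocyte markers were between 1948030 and 4567850 normalized counts in controls, 164150 to 437106 in cKO replicates 1 to 4, and 1229570 in cKO replicate 5.

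None of the 10 genes passed the test in either direction (limma, Benjamini-Hochberg adjusted p under 0.05), where 7.48% of the 15832 genes tested did. At an unadjusted p under 0.05, 3 members were higher (Bglap, Bglap2 and Ifitm5) and 0 lower, against 14.7% and 12.2% of all genes. The quasi-likelihood test of edgeR on recovered reads also called 0 members (background 4.96%). DESeq2 on the same reads called those 3 as higher (background 9.98% in that direction), library quality weights in limma called 1 (Ifitm5, background 14.1%) and a fit with replicate numbers as a block called 2 (Bglap and Ifitm5, background 9.53%), with 0 lower in each. At an unadjusted p under 0.05 either way, the share over all genes was 26.9%. In the authors' deposited table the same 3 were called as higher, where 10.5% of genes with an adjusted p were. For every member the ranges of the groups overlapped; among all genes tested, 6.82% lay wholly higher and 4.6% wholly lower in the knockout. The median log2 fold change of the 10 was 0.44, against -0.0039 over all genes tested.

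**Figure D1:**
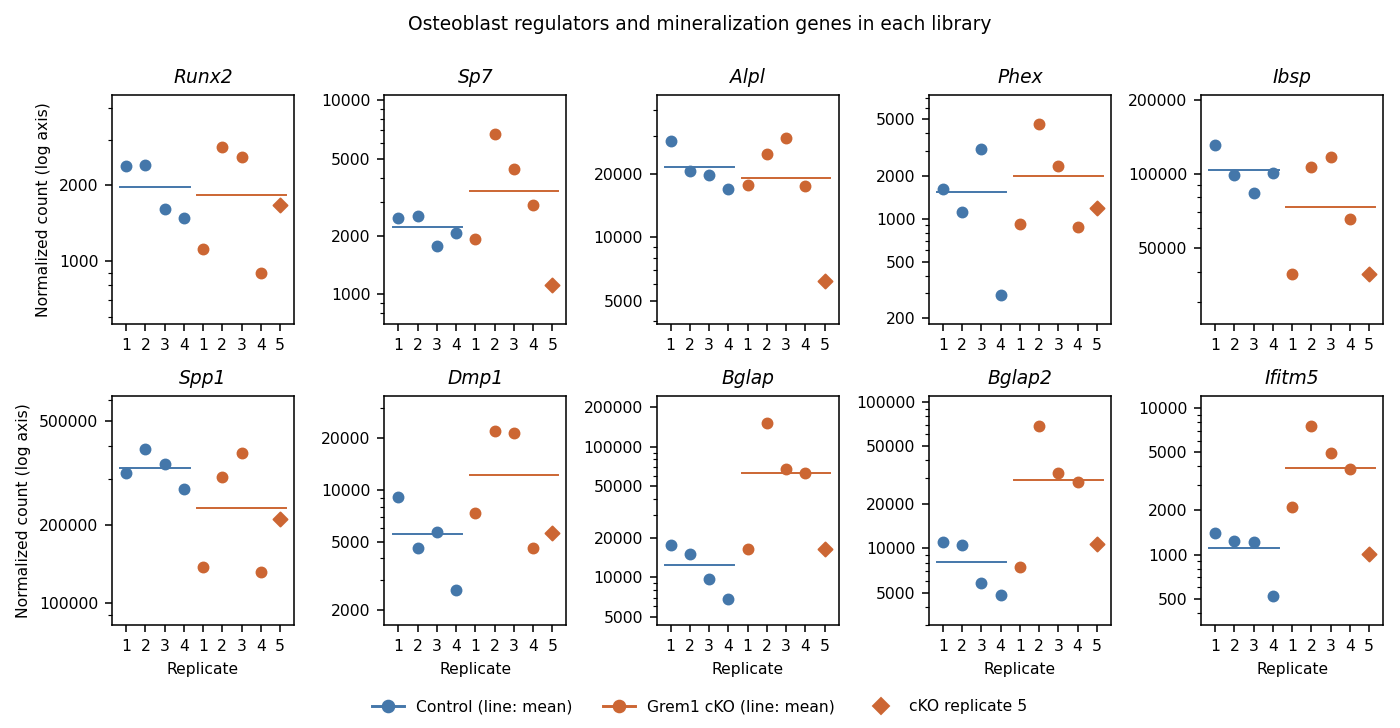
Normalized count (log axis) of the 10 genes in each of the 9 libraries, with group means as lines and cKO replicate 5 as a diamond. Controls and knockouts overlap in every panel, and cKO replicate 2 is the highest library in 7 of the 10 panels.

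The spread among knockout libraries was wide, with the same libraries recurring at its ends. Of the 10 genes, cKO replicate 2 had the highest value for 7, and cKO replicate 3 was first or second for 9. Control 4 had the lowest value for 5 members, Bglap, Bglap2, Dmp1, Phex and Ifitm5. The lowest value belonged to cKO replicate 5 for Sp7, Alpl and Ibsp, and to cKO replicate 4 for Runx2 and Spp1. The standard deviation was 14.7% to 77.2% of the mean in controls and 45.8% to 88.2% in cKO libraries. Dixon's test, which takes the gap to the nearest value as a share of the group's range, singled out no library in the 20 groups of values examined. With 4 or 5 libraries it can flag only a gap that makes up most of the range, so lesser departures would be missed.

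The transcriptional regulators showed no difference that passed the test. Runx2 (Entrez 12393), the master regulator of osteoblast commitment, had 2373, 2397, 1607 and 1481 normalized counts in controls 1 to 4. In cKO replicates 1 to 5 it had 1111, 2828, 2579, 899 and 1657, so that knockouts lay on both sides of the controls. The log2 fold change was -0.22 (SE 0.35, 95% interval -1.0 to 0.56, limma adjusted p = 0.718). About 5.87% of its annotated exon bases also belong to an antisense transcript, Runx2os1, whose reads cannot be separated here. Sp7 (Entrez 170574), the zinc finger factor that acts after RUNX2, had 2475, 2531, 1781 and 2061 in controls. Its cKO values were 1930, 6669, 4450, 2892 and 1121. Replicates 2 to 4 were above every control and replicate 5 was below all of them (log2 fold change 0.38, SE 0.44, 95% interval -0.61 to 1.36, limma adjusted p = 0.617). Without cKO replicate 5 the Sp7 value was 0.71 (adjusted p = 0.173), and that library alone against the controls gave -0.96 (adjusted p = 0.351).

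The enzymes of mineral deposition also remained short of the threshold. Alpl (Entrez 11647), tissue-nonspecific alkaline phosphatase, had 28566, 20477, 19675 and 16825 normalized counts in controls. In the knockout it had 17675, 24643, 29456, 17439 and 6198, with cKO replicate 5 at less than any control and the other knockouts inside or just above the control range. The log2 fold change was -0.31 (SE 0.40, 95% interval -1.19 to 0.57, limma adjusted p = 0.648). Without cKO replicate 5 it was 0.052 (adjusted p = 0.885), and replicate 5 against the controls gave -1.76 (adjusted p = 0.173). Phex (Entrez 18675), an endopeptidase whose loss raises FGF23 and causes X-linked hypophosphatemia, was the most variable member in controls, with 1621, 1112, 3105 and 291. Its cKO values were 916, 4625, 2343, 869 and 1185 (log2 fold change 0.49, SE 0.69, 95% interval -1.04 to 2.03, limma adjusted p = 0.679). Control 4 was the low library, and leaving it out turned the direction (-0.16, adjusted p = 0.896).

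Ibsp, Spp1 and Dmp1 encode secreted acidic phosphoproteins of one gene family. Ibsp (Entrez 15891), bone sialoprotein, which nucleates hydroxyapatite, had 130597, 99004, 83409 and 100689 normalized counts in controls. In the knockout it had 39198, 106330, 117344, 65319 and 39064, so that replicates 1, 4 and 5 were below every control while replicates 2 and 3 were inside the control range. The log2 fold change was -0.63 (SE 0.36, 95% interval -1.42 to 0.16, limma adjusted p = 0.285). Spp1 (Entrez 20750), osteopontin, had 315387, 389343, 341640 and 273392 in controls. Its cKO values were 137865, 304282, 375325, 131734 and 210112, again with replicates 1, 4 and 5 below all controls (log2 fold change -0.62, SE 0.36, 95% interval -1.42 to 0.18, limma adjusted p = 0.295). Of its annotated exon bases 18.8% are shared with a transcript model on the same strand, Gm42793. Dmp1 (Entrez 13406), a matrix protein of maturing osteocytes, stood the other way, with 9110, 4624, 5718 and 2606 in controls. The knockout values were 7372, 22029, 21460, 4567 and 5589, of which replicates 2 and 3 exceeded every control (log2 fold change 0.96, SE 0.54, 95% interval -0.23 to 2.16, limma adjusted p = 0.278). The fourth gene of this family in bone, Mepe, had between 25.2 and 988 among controls and between 54.9 and 2982 among knockouts (log2 fold change 0.43, adjusted p = 0.865). The dentin gene Dspp had no read in any library.

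On the log2 scale Bglap, which encodes osteocalcin, had the largest fold change of the 10. Bglap (Entrez 12096) had 17595, 15177, 9766 and 6876 normalized counts in controls 1 to 4, and 16373, 153159, 67543, 62937 and 16602 in cKO replicates 1 to 5. Replicates 2, 3 and 4 were above every control, whereas replicates 1 and 5 lay between control 1 and control 2. Controls averaged 12354 ± 4904 (SD, n = 4) and knockouts 63323 ± 55847 (SD, n = 5), a ratio of means of 5.13. On the scale of log2(normalized count + 1) the difference was 1.95, or 3.86-fold (SE 0.64, 95% interval 0.52 to 3.37, limma adjusted p = 0.0863). Bglap2 (Entrez 12097), the second copy, had 11128, 10607, 5794 and 4770.5 in controls, and 7478, 68651, 32439, 28180 and 10728 in the knockout. The same 3 knockouts exceeded all controls (2.9-fold, log2 fold change 1.53, SE 0.59, 95% interval 0.21 to 2.85, limma adjusted p = 0.13). Without cKO replicate 5 Bglap passed (log2 fold change 2.30, adjusted p = 0.0278) and Bglap2 did not (1.79, adjusted p = 0.0651). Replicate 5 against the controls gave 0.52 for Bglap and 0.51 for Bglap2. In the authors' deposited table the log2 fold changes were 2.36 (adjusted p = 0.0014) and 1.87 (adjusted p = 0.00981).

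The coding sequences of Bglap and Bglap2 are shown because reads cannot always be assigned to a single copy. They were read from GENCODE M21 transcripts, 5′ to 3′, with the 4 bases that differ between them in capitals.
Bglap: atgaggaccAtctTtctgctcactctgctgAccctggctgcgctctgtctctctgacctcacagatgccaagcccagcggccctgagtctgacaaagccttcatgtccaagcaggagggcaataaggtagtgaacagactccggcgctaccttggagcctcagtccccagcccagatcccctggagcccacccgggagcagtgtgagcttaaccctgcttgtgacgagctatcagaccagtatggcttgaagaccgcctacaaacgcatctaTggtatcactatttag
Bglap2: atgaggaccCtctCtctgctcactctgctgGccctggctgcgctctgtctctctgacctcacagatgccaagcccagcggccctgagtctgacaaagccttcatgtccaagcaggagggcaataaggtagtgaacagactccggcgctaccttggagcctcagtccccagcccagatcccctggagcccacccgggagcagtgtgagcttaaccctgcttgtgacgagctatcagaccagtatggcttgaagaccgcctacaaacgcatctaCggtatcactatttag
The coding sequences are both 288 bases long, 98.6% identical, and share an unbroken stretch of 241 bases. Of all 150-base windows of the Bglap transcript, the length of 1 read, 31.6% occur unchanged in the Bglap2 transcript. The third copy, Bglap3 (Entrez 12095), differs from Bglap at 13 coding bases and shares no 150-base window with it. The labels do not say how reads that map to several places were counted, so the split between copies is uncertain, while their sum does not depend on it as long as such reads were counted once. The 3 copies summed had 20587 ± 8199 (SD, n = 4) in controls and 93165 ± 80443 (SD, n = 5) in the knockout (log2 fold change 1.80, SE 0.62, limma adjusted p = 0.0995). Bglap3 alone had 92.2 to 221 in controls and 140 to 741 in the knockout (log2 fold change 1.02, limma adjusted p = 0.24).

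The proportion between the copies set cKO replicates 1 to 4 apart from the controls and cKO replicate 5. Bglap2 per Bglap was 0.632, 0.699, 0.593 and 0.694 in controls 1 to 4 and 0.646 in cKO replicate 5. In cKO replicates 1 to 4, the deeper libraries, it was 0.457, 0.448, 0.480 and 0.448. Bglap3 amounted to 1.06% to 1.45% of Bglap in the 5 libraries under 60 M reads and to 0.475% to 0.854% in the 4 above. In cKO replicates 2, 3 and 4, which had the highest Bglap counts, the ratios were 0.448, 0.480 and 0.448. By contrast, cKO replicates 1 and 5 had nearly equal Bglap counts (16373 and 16602) and ratios of 0.457 and 0.646. The part of depth in the difference between the 2 sets of libraries was not tested, since no control library belongs to the deeper set. The part of the gene's level was not tested either.

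**Figure D2:**
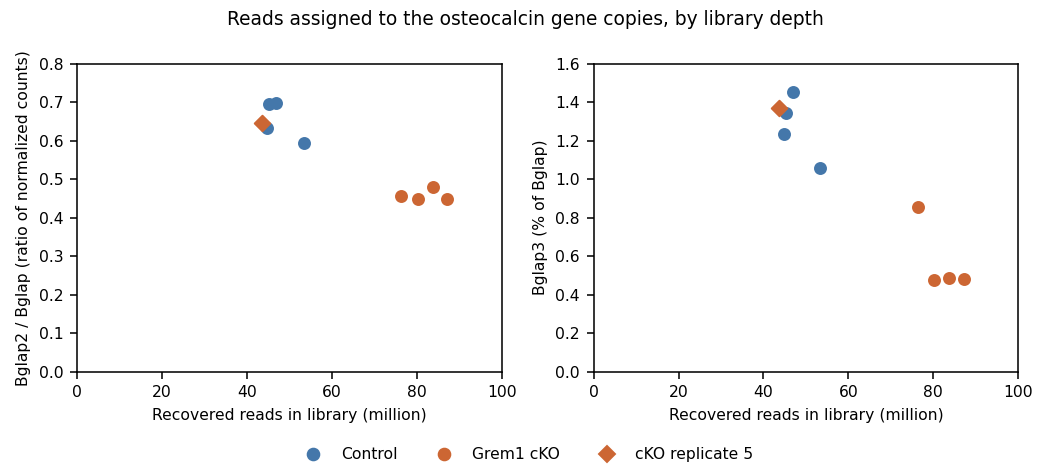
Bglap2 per Bglap (left) and Bglap3 as a percentage of Bglap (right) against recovered reads per library (M), 1 point a library. The 4 controls and cKO replicate 5 (diamond) lie at 0.593 to 0.699 on the left, and the 4 deeper knockout libraries at 0.448 to 0.480.

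Ifitm5 (Entrez 73835) encodes BRIL, an osteoblast membrane protein that is mutated in osteogenesis imperfecta type V. It had 1413, 1242, 1223 and 524 normalized counts in controls and 2117, 7598, 4951, 3834 and 1010 in cKO replicates 1 to 5. Replicates 1 to 4, the deeper libraries, were above every control and replicate 5 was inside the control range. The part of depth in this separation was not tested. Controls averaged 1100 ± 394 (SD, n = 4) and knockouts 3902 ± 2565 (SD, n = 5). The log2 fold change was 1.61, or 3.05-fold (SE 0.54, 95% interval 0.40 to 2.82, limma adjusted p = 0.0927). Without cKO replicate 5 it passed (log2 fold change 2.02, adjusted p = 0.0109), and replicate 5 against the controls gave -0.028 (adjusted p = 0.994). In the authors' deposited table Ifitm5 was called (log2 fold change 1.83, adjusted p = 0.0055). On the same strand, 29.7% of its annotated exon bases are shared with the transcript model Gm45717.

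Promoters are shown for Bglap and Ifitm5, which in cKO replicates 2, 3 and 4 lay above every control, and for Spp1, for which no knockout did. Each is the 250 bases before the transcription start in RefSeq's GRCm38.p6 table, 5′ to 3′ on the gene's strand, with matches to the RUNX core motif ACCACA, or TGTGGT for the other strand, in capitals. The authors' files use mm39, so these positions belong to another build.
Bglap promoter, chr3:88384467-88384716, minus strand: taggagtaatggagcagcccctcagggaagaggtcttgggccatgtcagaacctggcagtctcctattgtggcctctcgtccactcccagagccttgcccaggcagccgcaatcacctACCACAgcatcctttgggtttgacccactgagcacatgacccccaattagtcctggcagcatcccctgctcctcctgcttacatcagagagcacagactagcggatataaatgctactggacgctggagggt
Ifitm5 promoter, chr7:140950244-140950493, minus strand: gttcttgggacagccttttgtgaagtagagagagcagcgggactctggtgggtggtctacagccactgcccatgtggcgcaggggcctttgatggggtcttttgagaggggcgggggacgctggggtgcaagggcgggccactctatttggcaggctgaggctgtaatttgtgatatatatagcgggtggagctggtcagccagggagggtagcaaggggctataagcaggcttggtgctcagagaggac
Spp1 promoter, chr5:104434861-104435110, plus strand: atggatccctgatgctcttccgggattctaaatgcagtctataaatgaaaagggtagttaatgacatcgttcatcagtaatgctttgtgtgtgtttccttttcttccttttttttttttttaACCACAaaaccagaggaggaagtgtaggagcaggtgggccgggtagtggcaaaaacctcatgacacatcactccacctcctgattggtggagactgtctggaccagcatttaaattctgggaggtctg
The motif begins 132 bases before the start of Bglap and 128 bases before that of Spp1, and its letters are not in the Ifitm5 window. The motif is in 14% of the 32851 promoter windows listed, and in 4 of the 11 windows that belong to 8 of the 10 genes. Those 4 are the windows of Runx2, Bglap, and 1 each of Spp1 and Dmp1. Sp7 and Bglap2 have no entry in the table. A match describes the sequence and shows no binding.

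**Figure D3:**
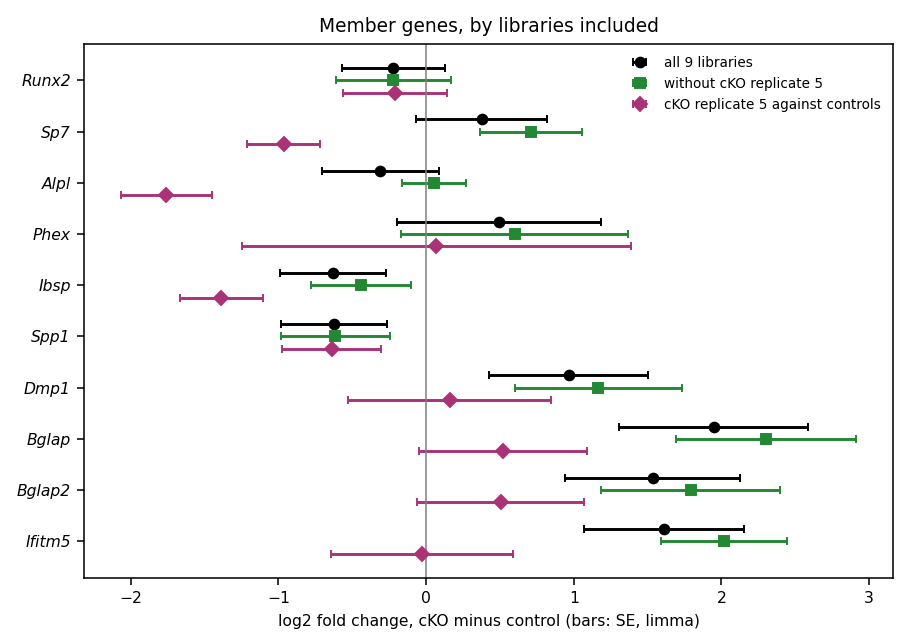
Log2 fold change (cKO minus control) of the 10 genes in limma, with bars of 1 SE, for all 9 libraries, without cKO replicate 5, and for cKO replicate 5 against the 4 controls. Bglap, Bglap2 and Ifitm5 lie at 1.53 to 1.95 with all libraries and at -0.028 to 0.52 for replicate 5 alone, where Alpl and Ibsp lie lowest at -1.76 and -1.39.

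For all 10 members cKO replicate 5 lay below the mean of the other 4 knockouts, but it was the lowest knockout only for Sp7, Alpl, Ibsp and Ifitm5. For the other members cKO replicate 1, replicate 4 or both were lower. Replicate 5 was the only knockout that could be compared with controls at like depth. There the variance was estimated from the 4 controls alone and taken to hold for the single knockout library. In limma 0 members passed (background 0.524%). The log2 fold changes there ran from -1.76 (Alpl), -1.39 (Ibsp) and -0.96 (Sp7) up to 0.52 (Bglap), with a median of -0.12 over the 10 members. The tests of edgeR and DESeq2 were not run on these 5 libraries. Without that library 2 members passed, both higher (Bglap and Ifitm5), where 12.4% of all genes passed in that direction.

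Ratios between members within 1 library do not depend on the scaling between libraries, and for some of them the groups did not overlap. For each library the normalized count of 1 member was divided by that of another, for all 45 pairs. The groups did not overlap for 14 pairs (31.1%), and 12 of these 14 included Bglap, Bglap2 or Ifitm5. Over all pairs of the 13485 tested genes with reads in every library, the groups did not overlap for 11.6%. The 45 pairs come from only 10 genes, so that the 2 shares are not compared by a test. No test was made over these ratios, since the pairs share genes and were examined together. Bglap per Ibsp was 0.135, 0.153, 0.117 and 0.0683 in controls and 0.418, 1.44, 0.576, 0.964 and 0.425 in cKO replicates 1 to 5. Every knockout, replicate 5 included, was above every control, although both replicates 1 and 5 had Bglap counts like those of controls 1 and 2. Their Ibsp counts were below all controls. Ifitm5 per Ibsp was 0.0052 to 0.0147 in controls and 0.0259 to 0.0715 in the knockout, and Bglap per Runx2 was 4.64 to 7.42 and 10.02 to 70.02. The 2 pairs without those genes were Sp7 per Ibsp (0.0190 to 0.0256 in controls, 0.0287 to 0.0627 in the knockout) and Dmp1 per Ibsp. The last was separated only narrowly, with a highest control of 0.0698 and a lowest knockout of 0.0699. These ratios were chosen after their values were seen.

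**Figure D4:**
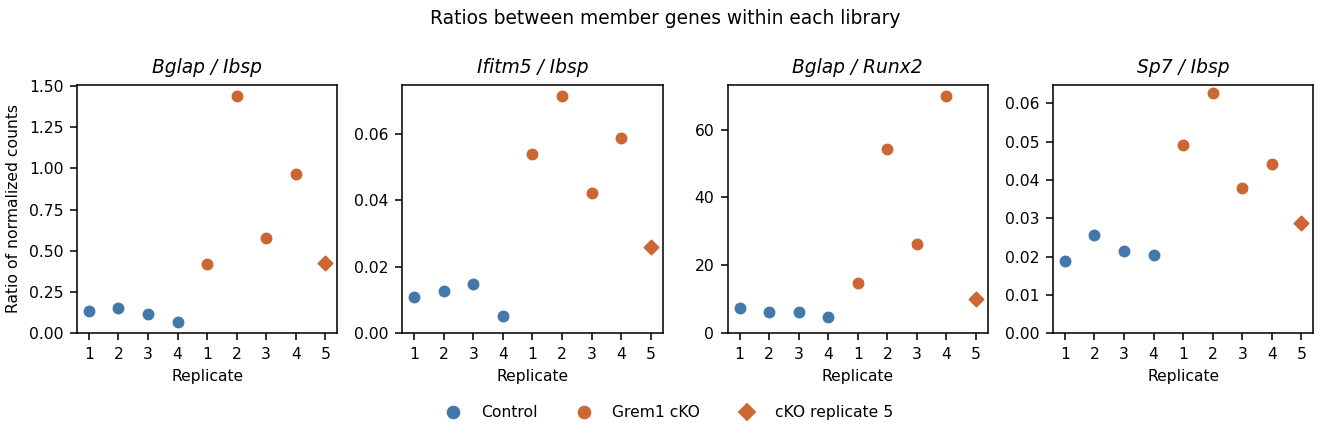
Ratio of normalized counts of 2 member genes within each library (vertical axes from 0), controls 1 to 4 and then cKO replicates 1 to 5, for Bglap/Ibsp, Ifitm5/Ibsp, Bglap/Runx2 and Sp7/Ibsp. In all 4 panels every knockout library lies above every control, and cKO replicate 5 (diamond) is the lowest knockout in all but the first.

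Levels of different members can be compared only per length, here as normalized count per kilobase of annotated exon (GENCODE M21). In controls Spp1 was highest with 200206 ± 29468 per kilobase (SD, n = 4), followed by Ibsp with 50012 ± 9533. Bglap (19990 ± 7935) and Bglap2 (17144 ± 6918) came next, with ranges across libraries that overlapped. Per length, the members were not compared within each library. Alpl followed with 5303 ± 1249, then Dmp1 (1995 ± 985) and Ifitm5 (1439 ± 515), whose ranges overlapped. Sp7 had 651 ± 105, and its range (524 to 745) overlapped that of Ifitm5 (685 to 1847). Phex (244 ± 188) and Runx2 (222 ± 55.2) shared the lowest place with overlapping ranges. In the knockout the mean of Bglap (102464 ± 90368, SD, n = 5) stood above that of Ibsp (35518 ± 17816), with overlapping ranges, and Spp1 (140694 ± 64475) again had the highest mean. The knockout ranges of Bglap (26493 to 247830) and Spp1 (79936 to 227746) overlapped too.

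Other genes of osteoblasts were counted in 5 lists. Among 24 further transcription regulators 0 were higher and 5 lower (median log2 fold change 0.42). Those of smallest p were Ets1 (-1.66), the Wnt effector Lef1 (-1.71), the AP-1 factor Fosl2 (-0.63) and the chondrogenic regulator Sox9 (-1.47), with limma adjusted p of 0.0155, 0.0173, 0.0213 and 0.0285. The fifth was Zfp521 (-1.09), a zinc finger protein that represses RUNX2. The other 19 did not pass. Of the 5 called genes, Ets1 and Lef1 passed whichever single library was left out, and in cKO replicate 5 they stood at -1.62 and -2.07 against the controls. Ets1 had 14657 and 19093 normalized counts in controls 1 and 3, the controls with high endothelial markers. It had 7216 and 7254 in controls 2 and 4, and 2561 to 4705 in the knockouts. No single omission removes both controls 1 and 3, and the part of endothelial cells in the Ets1 values was not tested. Sox9 and Zfp521 were at -0.25 and -0.18 in cKO replicate 5. They passed in 1 of the 9 fits that leave out a library, the fit without cKO replicate 5.

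In the list of bone matrix proteins 6 of 21 tested were lower and 0 higher (median -0.63). Omd, osteomodulin, a keratan sulfate proteoglycan of bone, changed by -1.96 (limma adjusted p = 0.0106) and passed in all 9 fits. The next were the collagen-modifying genes Fkbp10 (-0.91), P3h1 (-1.35) and Plod2 (-1.58), with limma adjusted p of 0.0176, 0.0184 and 0.0351. The other 2 were Smoc1 (-3.15) and Tnn (-5.09), for which cKO replicate 5 lay on the control side (0.26 and 0.19 against the controls). Plod2 stood at -0.28 in that library. Plod2, Smoc1 and Tnn each passed in 1 of the 9 fits, that without this library, while Fkbp10 passed in 7 and P3h1 in 6. The type I collagen genes, which make up most of the organic bone matrix, had log2 fold changes of 0.023 (Col1a1, limma adjusted p = 0.989) and 0.077 (Col1a2, limma adjusted p = 0.952).

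Among genes of mineral and phosphate handling 2 of 17 tested were lower and 0 higher (median -0.30). They were Car12, a carbonic anhydrase (-1.68, limma adjusted p = 0.032), and Mgp, matrix Gla protein, an inhibitor of calcification (-1.24, limma adjusted p = 0.0453). Each passed in 2 of the 9 fits that leave out a library. Of 17 receptors and other inputs 2 were higher, Fgfr1 (0.79) and the glucocorticoid receptor Nr3c1 (0.92), and 2 lower, Fgfr2 (-0.81) and Fgfr3 (-2.85), with limma adjusted p of 0.021, 0.0213, 0.0413 and 0.0173. In the same order they passed in 3, 4, 3 and 6 of the 9 fits that leave out a library. In cKO replicate 5 they stood at 0.23, 0.33, -0.95 and -1.42 against the controls. The fits without 1 library called 0 to 4 of that list as higher and 0 to 2 as lower.

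Of 14 osteocyte genes tested 2 were higher, the Wnt antagonist Dkk1 (4.95, limma adjusted p = 0.0494) and the chemokine receptor Ackr3 (1.01, limma adjusted p = 0.0451), and 0 lower (median 0.52). Each passed in 2 of the 9 fits. The edgeR test did not call Dkk1 (adjusted p = 0.109), while DESeq2 did (adjusted p = 0.00583). Replicate 5 against the controls gave 3.66 for Dkk1. Dkk1 had 40.5, 157, 0 and 11.2 normalized counts in controls and 243, 1907, 919, 413 and 212 in the knockout, with cKO replicates 2 and 3 highest, as for Bglap and Ifitm5. Sost, the sclerostin gene of mature osteocytes, and Fgf23 had no read in any library. At an unadjusted p under 0.05 in limma, 3 regulators were higher and 6 lower, 1 matrix gene was higher and 11 lower, 3 genes of mineral handling were higher and 7 lower, and 5 osteocyte genes were higher and 1 lower, against 14.7% and 12.2% of all genes. The edgeR test called 0 higher in the first 3 of these lists, with 3, 3 and 1 lower, and 1 osteocyte gene higher and 0 lower. DESeq2 called 4 regulators higher and 6 lower, 1 matrix gene higher and 6 lower, 1 gene of mineral handling higher and 5 lower, and 4 osteocyte genes higher and 0 lower. In limma 4.61% of all 15832 genes were called higher and 2.87% lower, and the median difference was near 0 (-0.0039). Over all genes edgeR called 516 higher and 270 lower of 15832, and DESeq2 1567 higher and 972 lower of 15708. Without cKO replicate 5 the counts were 8 higher and 6 lower for the regulators, 1 and 9 for matrix proteins, 2 and 5 for mineral handling, 4 and 2 for receptors, and 5 and 1 for osteocyte genes, where 12.4% and 10.1% of all genes were called.

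**Figure D5:**
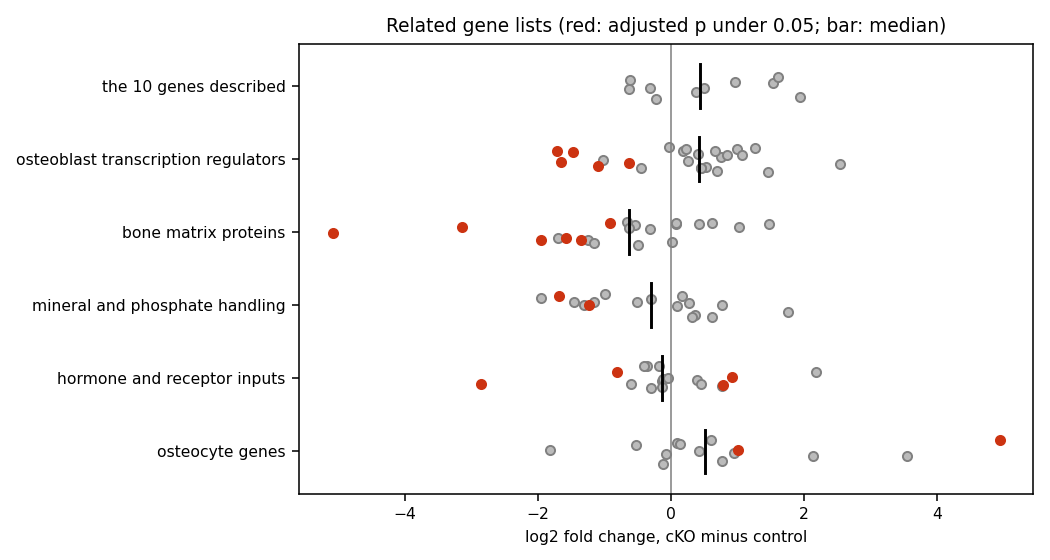
Log2 fold change (cKO minus control, limma, all 9 libraries) of each tested gene in the 10 genes described and in 5 related lists. Red points passed the test, black bars are list medians, and the vertical position within a list has no meaning; the 10 genes hold no red point and a median of 0.44.

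Several members are also made by other cells, so markers of those cells are given beside them. Fewer cells of a type and less RNA per cell cannot be told apart in such bulk samples. Hypertrophic chondrocytes, which express Ibsp, Spp1, Alpl and Runx2, had 2 of 5 markers lower (Ihh and Panx3) and 0 higher. The summed level was 79145 to 134629 normalized counts in controls, 25688 to 85138 in cKO replicates 1 to 4 and 64974 in replicate 5. Panx3 (log2 fold change -2.49, limma adjusted p = 0.0075) passed in all 9 fits that leave out a library, Ihh passed in 4, and Col10a1 had no read in control 3 and cKO replicate 3. Osteoclasts and macrophages also express Spp1. Of 7 osteoclast markers tested 1 was higher, the calcitonin receptor gene Calcr, and 1 lower, Nfatc1, and the sums lay between 44783 and 78688 for controls and between 28582 and 53475 for knockouts. Calcr passed in 3 of the 9 fits that leave out a library and Nfatc1 in 1, that without cKO replicate 5. Neither edgeR (adjusted p = 0.116) nor DESeq2 (adjusted p = 0.0625) called Calcr, nor was it called in the authors' deposited table (adjusted p = 0.0615). The fusion genes Dcstamp and Ocstamp had no read in 7 and 6 of the 9 libraries. Calcr had 327, 0, 0 and 2.8 in controls and 1832, 4468, 4127, 1226 and 235 in the knockout. Of 8 macrophage markers 1 was lower (Mrc1). All 8 had negative log2 fold changes (median -3.67), and 5 were lower at an unadjusted p under 0.05 in limma (12.2% of all genes). Their sums were 26644 to 59181 in controls and 8063, 105239, 5422, 10131 and 16114 in cKO replicates 1 to 5. Every knockout but replicate 2 was thus below all controls. Replicate 2 was above them, and it also had the highest Bglap, Ifitm5 and Sp7. Fits without 1 library called up to 4 macrophage markers as lower. Of 5 blood lineage markers tested 0 passed in limma, with 0 also at an unadjusted p under 0.05 and 0 by edgeR or DESeq2. All 5 had negative log2 fold changes (median -0.65). Of these 5 only Ptprc and Itgam lay below every control in all knockouts but replicate 2, where both were above. The blood marker sums were 5494 to 9531 in controls and 2547, 13685, 645, 3492 and 9058 in cKO replicates 1 to 5. In limma 1 of 6 endothelial markers (Cldn5) was lower. For the endothelial list edgeR and DESeq2 each called 4 lower, and limma fits without 1 library called up to 3. The summed endothelial level was 83010 and 104745 in controls 1 and 3, against 2809 and 4818 in controls 2 and 4 and 3557 to 6672 in the knockouts. The part of these cells in the members' values was not tested.

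For each member the genes with the most similar pattern were found as those of highest Pearson r of log2(normalized count + 1) over the 9 libraries. These values describe 9 libraries that differ in genotype and depth, and the highest of so many genes is always high. The part of genotype or depth in the correlations was not tested. Bglap was followed most closely by Cox6a1 (r = 0.986), Polr1d (0.974) and Rps16 (0.971), and Ifitm5 by Cadm1 (0.981), Insc (0.977) and Ldhb (0.977). For Bglap2 the second was its own copy Bglap3 (0.965). Ibsp went most closely with Pth1r (0.965), the parathyroid hormone receptor gene, and Dmp1 with Serpini1 (0.960) and Col22a1 (0.948). Nearest to Alpl were Zfp316 (0.981) and Pnrc2 (0.974), to Sp7 Arfgap2 (0.948), to Runx2 Nme7 (0.941), to Spp1 Ptpn1 (0.946) and to Phex Dennd11 (0.946).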

How the data were processed

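RNA was measured in 9 libraries, grouped by their titles. The authors deposited normalized counts, a signal obtained by dividing each library's counts by its size factor. The submitters' processing notes name STAR, featureCounts, DESeq2 and build mm39. The authors' deposited table holds, per the file headers, mean normalized count (signal), log2 fold change with its SE, a test score and p-values. Its values are quoted only as the authors' own.

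Within a library, values were whole multiples of the smallest (tolerance 0.01 of a read, at least 99.99% of values above 0), which recovered 43.5 to 87.2 M reads (M, 1e6). Symbols came from NCBI's GRCm38.p6 gene table, which matched 25275 IDs. The other 1904 IDs, with 0.45% to 0.988% of each library, were tested too. Lengths, exon overlaps and coding sequences came from GENCODE M21, used with no coordinates.

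The test was limma 3.58.1 (R 4.3.3, trend, two-sided, Benjamini-Hochberg over all genes, threshold 0.05) on log2(normalized count + 1), for genes of at least 10 in at least 4 libraries (15832). Fold changes are on that scale. For genes near 0 they depend on the added 1, and where a group holds libraries at 0 they can exceed the ratio of means (Calcr, Dkk1). Alternatives were the quasi-likelihood test of edgeR 4.0.16 and DESeq2 1.42.0, both run on the recovered reads, other pseudocounts, filters and scalings, library weights, summed osteocalcin copies and fewer libraries. The fit was checked on simulated counts. The members and lists were chosen with earlier results of these data known. Text names Grem1, Lepr, all members, Bglap3, Col1a1, Col1a2, Mepe, Sost and Dspp, up to 4 called genes per list and direction by p, and the nearest genes by r. Others named (Zfp521, Smoc1, Tnn, Fgf23, Calcr and cell type markers) were chosen after their values were seen.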

Additional observations from a re-analysis of the deposited data

How the results depend on the processing

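The count of members called was 0 higher and 0 lower in 18 of the 22 alternatives. Leaving out 1 library gave 0 to 2 members called higher. DESeq2 on recovered reads called 3, library quality weights 1 (Ifitm5), and the replicate block 2 (Bglap and Ifitm5). Leaving out cKO replicate 5 reversed Alpl (0.052; -0.51 to 0.052 over single omissions), leaving out control 4 reversed Phex (-0.16; -0.16 to 0.98 over single omissions), and the 5 libraries under 60 M reads reversed Sp7 (-0.96) and Ifitm5 (-0.028). The reversed values of Alpl and Phex did not pass in limma, and those of Sp7 and Ifitm5 rest on a single knockout library. Runx2, Ibsp and Spp1 stayed negative and Bglap, Bglap2 and Dmp1 positive under the alternatives run for each (22, and 21 for Bglap2, which has no value of its own with the copies summed). The number of all genes called (1184) was 786 with edgeR, 2539 with DESeq2, 4056 with library weights, 83 under 60 M reads, 338 without controls 1 and 3 together (the controls with high endothelial markers), and 377 to 3562 without 1 library. Scaling moved the median of all genes to -0.028 at most (TMM). The replicate block, in which Alpl reversed (0.052), called 2715 genes, but the correlations of same-numbered libraries were 0.070, 0.017, -0.0062 and -0.011, so the numbers do not pair them; cKO replicate 5 has no partner and drops out of that fit. Every member had at least 208 reads in every library; this bounds counting error only, and the part of depth in the spread between libraries was not tested.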
